A study of Mus musculus with 6 samples.

Results

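Blood vessels of the lung are lined by endothelial cells (ECs) whose genes differ between arteries, capillaries and veins. To examine the arterial and venous ends of this tree during regenerative lung growth, 7 marker genes were described in ECs of sham-operated and pneumonectomised mice. They were chosen by name and matched on the gene symbol, and all 7 were found among the 24063 symbols of the count files. The arterial genes were Gja4, Gja5, Bmx and Gkn3, and the venous or large vessel genes were Vwf, Slc6a2 and Cpe. RNA was sequenced from CD31-positive lung ECs of male C57BL6 mice, labelled 8 week old (the methods give an older range at surgery), as 3 sham-operated libraries and 3 libraries taken 7 days after unilateral pneumonectomy (PNX). Each library was pooled from 2 mice, none carried a mutant allele, and sham mice had a thoracotomy without removal of the left lung. ECs were taken with anti-CD31 magnetic beads, so vessels of every calibre and any other CD31-bearing cell entered 1 RNA pool.

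Arterial and venous identity is set by blood flow and by opposing programmes, with Notch and SOX17 signalling on the arterial side and NR2F2 on the venous side. Most ECs of the lung are capillary, so a gene confined to arteries or veins would report on a small share of the cells in a bulk sample. Fewer cells of a type and less RNA of a gene per cell cannot be told apart in these data.

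Levels are given as CPM, the counts of a gene scaled to a common library total. Total counts ranged from 29526989 to 81282871 per library and were lowest in replicate 3 of each group. By their labels, replicates 1 and 2 of sham and PNX had been released in a previous record (earlier deposit), while replicate 3 carries no such note (later deposit). Counts of replicates 1 and 2 were nearly the same within a group (chi-square per degree of freedom 1.75 in sham and 1.57 in PNX, against 67.9 to 86.4 for pairs with replicate 3). The pair was therefore added up and treated as a single sample, so that n = 2 in sham and in PNX. An exact permutation test at this size, two-sided, cannot give a p below 0.333. Genes of ECs were abundant: 8 general endothelial genes summed to 6602 to 8345 CPM in sham and 6532 to 7187 CPM in PNX. Pecam1, which encodes CD31, was at 2020.2 to 2528 CPM in sham and 2128 to 2464 CPM in PNX. Genes of other cells were also detected. The 8 fibroblast genes summed to 1174 to 1326 CPM in sham and 3519 to 4997 CPM in PNX. The 5 neutrophil genes found summed to 244 to 696 CPM in sham and 268 to 583 CPM in PNX. The purity of the ECs was not tested.

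None of the 7 genes passed both thresholds of the study's methods, 0.01 for the adjusted p and 1 for the size of the log2 fold change. In edgeR's quasi-likelihood test with 4 samples, 0 of 16598 genes passed, which is 0% of all genes tested. That count depends on the test and on adding up replicates 1 and 2. Without block DESeq2 on the same 4 samples passed 572 genes (3.45%). On 6 separate libraries edgeR passed 409 (2.51%), and each of these fits passed 0 of the 7. The paper used DESeq2 with 3 samples per group and did report genes at these thresholds. In edgeR with 4 samples, a replicate block for the deposit compares PNX and sham inside each deposit. It let 5.12% of all genes pass (3.89% higher and 1.23% lower), and again 0 of the 7. Cpe passed a looser rule, an adjusted p under 0.05 at any fold change with the replicate block, which 21.6% of all genes passed. Without block 2 of the 7 had an unadjusted p under 0.05, Cpe at 0.00721 and Gkn3 at 0.0433, against 12.5% of all genes (7.54% higher, as Cpe was, and 4.96% lower, as Gkn3 was). The 3 PNX libraries lay wholly on one side of the 3 sham libraries for 5 of the 7, against 36.5% of all genes. Gja4 and Cpe lay above sham, as 18.6% of all genes did, and Bmx, Gkn3 and Vwf lay below it, as 17.9% did. The median log2 fold change was -0.29 over the 4 arterial genes, 0.23 over the 3 venous genes and -0.01 over all genes tested.

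The 7 genes spanned a wide range of levels. Levels between genes were compared per transcript length, in the deposited TPM (reads per base of transcript, scaled to a common total) of 1 transcript of each gene. Vwf was highest, at 208 to 218 TPM in sham and 183 to 197 TPM in PNX. Gja4 came next, at 105 to 129 TPM in sham and 143 to 158 TPM in PNX, without overlap with Vwf in either group. Slc6a2 (32.9 to 67.2 TPM in sham and 38.2 to 79.7 TPM in PNX) and Cpe (47.5 to 53.1 TPM in sham and 72.8 to 87.3 TPM in PNX) overlapped in both groups and could not be ordered. Gja5 followed at 17.4 to 20.7 TPM in sham and 14.1 to 18.6 TPM in PNX, and Bmx at 8.59 to 10.3 TPM in sham and 7.01 to 7.63 TPM in PNX. Summed over its 2 transcripts, Gja5 would be at 35.2 to 41.8 TPM in sham, within the range of Slc6a2. Gkn3 was lowest, at 4.04 to 5.79 TPM in sham and 0.750 to 2.56 TPM in PNX. By median the order was the same in both groups, so Gja4 was the highest of the 4 arterial genes and Vwf of the 3 venous genes in sham and in PNX.

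**Figure D1:**
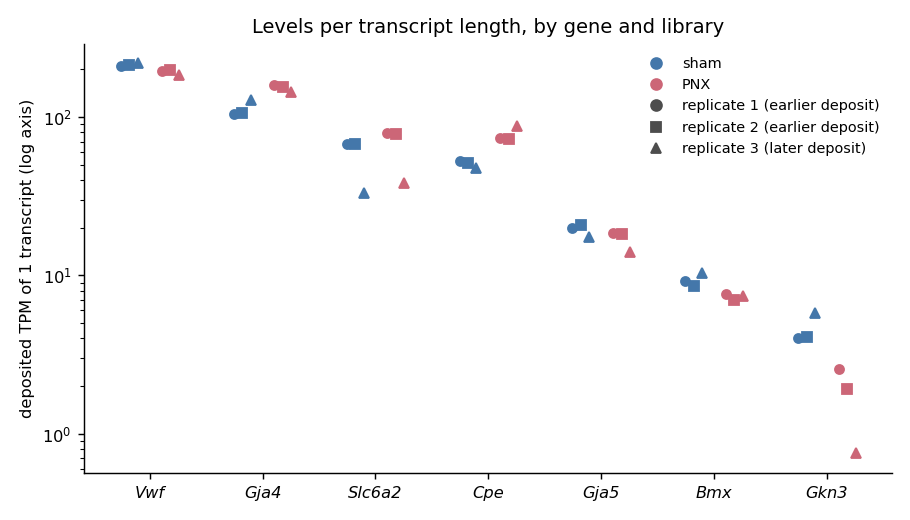
Deposited TPM of 1 transcript of each gene (log axis) in the 3 sham and 3 PNX libraries, ordered by the sham median, with a marker shape for each replicate. Vwf and Gja4 lie highest without overlap, Slc6a2 and Cpe overlap, and Gkn3 spreads from 0.750 to 5.79 TPM.

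Gja4 and Gja5 encode connexins, the subunits of the gap junction channels that couple arterial ECs to each other and to smooth muscle. Gja4 lies on the minus strand of chromosome 4 of GRCm38 from 127311421 to 127314039, overlaps no other gene in the GENCODE annotation and was counted on 1 transcript of 1686 bases. Its level was 70.5, 71.1 and 86.2 CPM in sham replicates 1, 2 and 3, and 107, 104 and 96.4 CPM in PNX replicates 1, 2 and 3. All PNX libraries lay above all sham libraries, but the gap was wide in the earlier deposit and narrow in the later one. The mean was 78.5 ± 10.9 CPM in sham and 101 ± 6.76 CPM in PNX (SD, n = 2 samples each). The log2 fold change was 0.37 (standard error 0.16), and edgeR's adjusted p was 0.455, or 0.0510 once the replicate block was included. Without both earlier sham libraries the log2 fold change was 0.22, in a fit where the deposits are unequally divided between groups. PNX was at 1.46 to 1.53 times sham in the earlier deposit and at 1.06 to 1.18 times sham in the later one (exact 95% intervals, counting error only), so the ratios differed beyond counting error.

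Gja5 (chromosome 3, 96904693 to 97077416, plus strand) is the other arterial connexin gene. Its annotated exons share bases with Gpr89 on the opposite strand. Its 2 RefSeq transcripts had equal counts in every library except sham replicate 3, where they were 749 and 748. Whether both were counted on the same reads, or the reads were divided between them, is not stated. With both summed, which would enter any shared reads again, the level was 51.0, 52.7 and 44.1 CPM in the sham libraries and 47.6, 46.2 and 35.6 CPM in the PNX libraries. PNX was below sham inside each deposit, while the groups overlapped across deposits. The log2 fold change was -0.21 (standard error 0.19, edgeR adjusted p = 0.747), against a spread of 47.9 ± 5.46 CPM in sham and 41.3 ± 8.02 CPM in PNX (SD, n = 2 samples each). With the replicate block it was -0.22 (standard error 0.09, edgeR adjusted p = 0.119). Without block the log2 fold change was -0.03 without PNX replicate 3 and -0.31 without sham replicate 3, fits in which the deposits are unequally divided between groups. Inside the deposits it was -0.14 in the earlier and -0.31 in the later one.

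The balance of these connexin genes lay further toward Gja4 in the PNX libraries. The ratio of Gja4 TPM to Gja5 TPM was 8.50, 8.52 and 10.2 in the PNX libraries, against 5.21, 5.09 and 7.37 in the sham libraries. Each PNX library had a higher ratio than each sham library, a difference that was not tested, and within a library this ratio does not depend on the scaling between libraries.

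Bmx encodes a cytoplasmic tyrosine kinase of the TEC family that marks arterial endothelium and endocardium. It lies on the minus strand of chromosome X from 164192842 to 164258193 and was counted on 1 transcript. The level was 11.0, 10.3 and 12.3 CPM in the sham libraries and 9.23, 8.45 and 8.84 CPM in the PNX libraries, so every PNX library was below every sham library. Sham had a mean of 11.5 ± 1.14 CPM and PNX 8.85 ± 0.0160 CPM (SD, n = 2 samples each). The log2 fold change was -0.38 (standard error 0.17), and edgeR's adjusted p was 0.488, or 0.0713 in the fit with the replicate block. It was -0.27 within the earlier and -0.48 within the later deposit.

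Gkn3, a secreted gastrokine known from the stomach and from arterial endothelium of the brain, was the lowest of the 7 and had the largest log2 fold change among them in size. It lies on the minus strand of chromosome 6 from 87383256 to 87388935. Its reads numbered 102, 91 and 62 in the sham libraries but 61, 40 and 7 in the PNX libraries. Scaled by library, PNX was at 0.817, 0.606 and 0.237 CPM against 1.28, 1.29 and 1.83 CPM in sham, with every PNX library below every sham library. The mean was 1.55 ± 0.383 CPM in sham and 0.478 ± 0.340 CPM in PNX (SD, n = 2 samples each). The fit put PNX at -1.57 relative to sham on the log2 scale (standard error 0.57), where edgeR's adjusted p was 0.378, or 0.0529 given the replicate block. It was -2.69 without both earlier PNX libraries, a fit in which the deposits are unequally divided between groups. Sham was 1.79 times PNX in the earlier deposit (exact 95% interval 1.40 to 2.30) and 7.70 times PNX in the later one (3.52 to 19.9). The larger ratio rests on the 7 counts of PNX replicate 3, and both intervals cover counting error only.

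None of the 4 arterial genes passed both thresholds, and their promoters are shown as a description only. Each is 300 bases, from 250 before to 50 after a RefSeq start site, on GRCm38.p6 and in the direction of the gene: chr4:127313990-127314289 (minus strand) for Gja4, chr3:97032152-97032451 (plus strand) for Gja5, chrX:164258144-164258443 (minus strand) for Bmx and chr6:87388886-87389185 (minus strand) for Gkn3. Capitals mark any match, on either strand, to the letters AGGAAG (ETS factors), ACAAAG (SOX factors), TGGGAA (RBPJ, the Notch effector), CACCC (KLF factors, read as GGGTG on the other strand) or TATAAA.
Gja4: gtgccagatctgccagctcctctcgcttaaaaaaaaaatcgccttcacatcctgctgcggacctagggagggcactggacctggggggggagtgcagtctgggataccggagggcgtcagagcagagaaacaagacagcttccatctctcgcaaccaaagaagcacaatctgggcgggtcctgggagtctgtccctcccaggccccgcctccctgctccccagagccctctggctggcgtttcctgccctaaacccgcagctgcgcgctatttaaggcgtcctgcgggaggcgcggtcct
Gja5: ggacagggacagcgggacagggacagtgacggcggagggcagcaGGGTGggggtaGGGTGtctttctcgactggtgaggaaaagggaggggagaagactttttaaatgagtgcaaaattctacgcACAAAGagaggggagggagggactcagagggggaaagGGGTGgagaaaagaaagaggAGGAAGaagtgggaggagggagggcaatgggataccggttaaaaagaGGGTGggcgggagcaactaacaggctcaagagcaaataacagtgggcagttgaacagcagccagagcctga
Bmx: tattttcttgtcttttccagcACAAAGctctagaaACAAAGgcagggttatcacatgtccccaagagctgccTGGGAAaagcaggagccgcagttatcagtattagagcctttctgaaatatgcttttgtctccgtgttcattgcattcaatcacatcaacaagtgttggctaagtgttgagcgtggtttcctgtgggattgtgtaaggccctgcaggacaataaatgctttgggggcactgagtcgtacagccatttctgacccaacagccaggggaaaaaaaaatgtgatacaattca
Gkn3: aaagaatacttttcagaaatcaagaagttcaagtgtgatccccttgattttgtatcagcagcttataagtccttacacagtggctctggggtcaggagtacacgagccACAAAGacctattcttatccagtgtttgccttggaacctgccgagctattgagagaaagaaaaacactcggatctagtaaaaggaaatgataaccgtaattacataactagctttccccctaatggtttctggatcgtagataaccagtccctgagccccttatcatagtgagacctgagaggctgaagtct
The SOX letters were present in Gja5, Bmx and Gkn3 and in 18.7% of 32851 promoter windows of this length. The ETS letters were present in Gja5 (35.4% of windows), the RBPJ letters in Bmx (25.6%) and the KLF letters 4 times in Gja5 (57.5%). TATAAA was in none of the 4 (13.6%), Gja4 held none of the 5 motifs, and no matches overlapped. These are letter matches, not measured binding sites, and any link to the log2 fold changes was not tested. Vwf, Slc6a2 and Cpe had no entry in the promoter table.

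**Figure D2:**
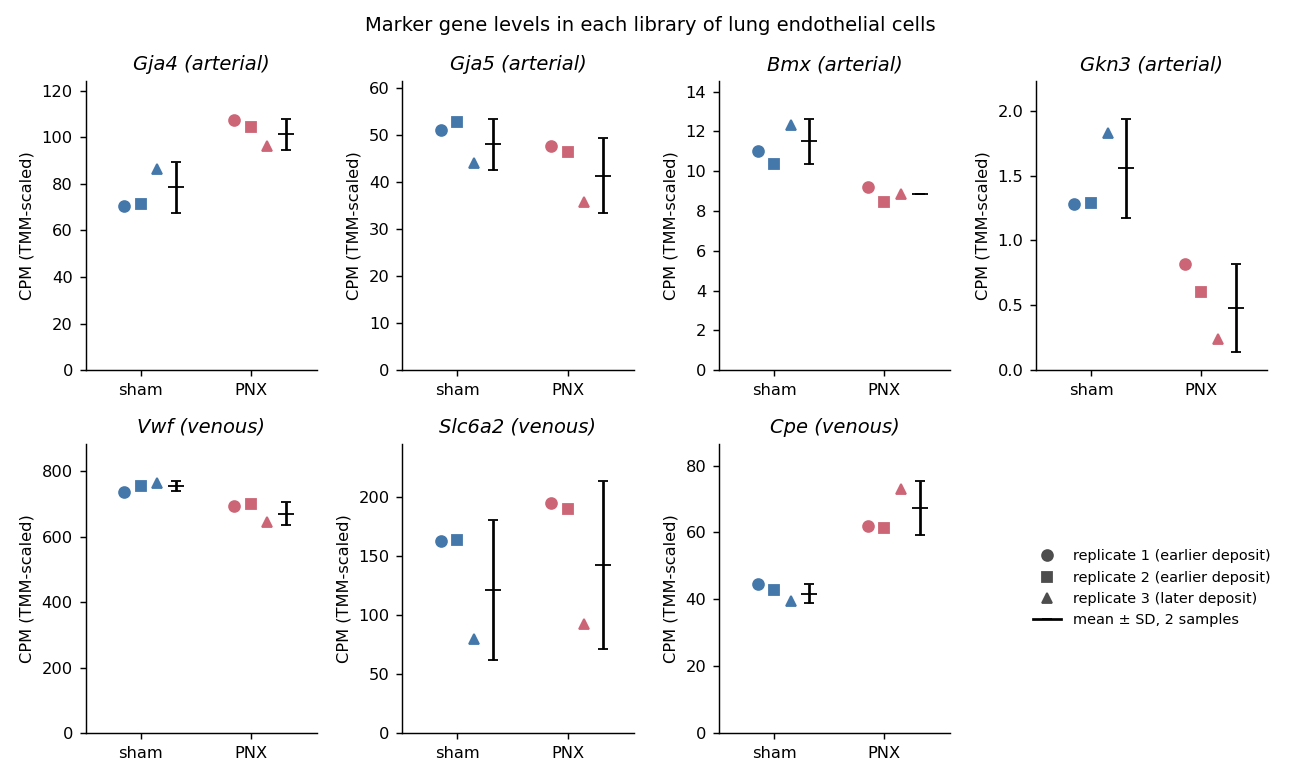
Level of each gene (CPM, TMM-scaled, axes from 0) in the 3 sham and 3 PNX libraries, with the mean ± SD of the 2 samples per group in black. Gja4 and Cpe lie above sham and Bmx, Gkn3 and Vwf below it in every PNX library, whereas Gja5 and Slc6a2 overlap.

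Among the venous and large vessel genes, Vwf encodes von Willebrand factor, the glycoprotein stored in Weibel-Palade bodies that tethers platelets to the vessel wall. Its gene spans 125546774 to 125686679 of chromosome 6 on the plus strand, and its depth was the greatest of the 7, at 19042 to 58570 counts per library. The PNX libraries had 693, 700.2 and 645 CPM of Vwf, against 736, 754 and 765 CPM in the sham libraries, so the PNX libraries lay below the sham libraries by a narrow margin. The mean was 755 ± 14.4 CPM in sham and 671 ± 36.0 CPM in PNX (SD, n = 2 samples each). A log2 fold change of -0.17 (standard error 0.15) resulted, for which edgeR's adjusted p was 0.742 and, given the replicate block, 0.295. The ratio of PNX to sham was 0.935 in the earlier deposit (exact 95% interval 0.927 to 0.943) and 0.844 in the later (0.828 to 0.859), so each was below 1 beyond counting error. Platelets also carry Vwf transcripts. The 8 platelet genes summed to 56.3 to 85.4 CPM in sham and 78.5 to 80.8 CPM in PNX, with 4 log2 fold changes above and 4 below 0 (median 0.05). With the replicate block 1 of 8 passed both thresholds, Pf4 (log2 fold change 1.10, edgeR adjusted p = 0.00248). The part of platelets in the level of Vwf was not tested.

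Slc6a2 encodes the noradrenaline transporter, through which lung vessels clear noradrenaline from the blood. Its gene spans 92960079 to 93001667 of chromosome 8 on the plus strand. The level was 163, 164 and 79.5 CPM in sham replicates 1, 2 and 3, and 195, 190.3 and 92.4 CPM in PNX replicates 1, 2 and 3. Here the deposits differed far more than the operations: the later deposit was at 0.486 times the earlier in sham and at 0.479 times in PNX. Of all genes tested, 0.862% were under 0.5 times the earlier deposit in both groups. The mean was 121 ± 59.3 CPM in sham and 143 ± 70.9 CPM in PNX (SD, n = 2 samples each), and the groups overlapped. Inside each deposit the log2 fold change was nearly the same, 0.24 in the earlier and 0.22 in the later one. The fit without block gave 0.23 (standard error 0.49, edgeR adjusted p = 0.915) and the fit with the replicate block 0.23 (standard error 0.08, edgeR adjusted p = 0.0847). Without block the value was -0.18 without sham replicate 3, a reversed direction, and 0.67 without PNX replicate 3. In both of these fits the deposits are unequally divided between groups. Sympathetic neurons also express Slc6a2, and 6 of their genes summed to 60.2 to 94.9 CPM in sham and 73.2 to 103 CPM in PNX. Stmn2 made up nearly all of this, with PNX at 102, 103 and 71.7 CPM against 93.3, 94.4 and 59.0 CPM in sham, and like Slc6a2 it was lower in the later deposit. Prph was at 0.226 to 1.42 CPM, while Th and Dbh, which encode enzymes of noradrenaline synthesis, were at 0 to 0.0339 CPM. The part of neurons in the level of Slc6a2 was not tested.

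Cpe encodes carboxypeptidase E, which trims basic residues from peptide hormone precursors and is abundant in veins of the lung and in neuroendocrine cells. It lies on the minus strand of chromosome 8 from 64592542 to 64693054. Its level was 44.4, 42.7 and 39.6 CPM in the sham libraries and 61.8, 61.2 and 72.9 CPM in the PNX libraries. Every PNX library was above every sham library, and the distance was larger than the spread within a group. The mean was 41.6 ± 2.86 CPM in sham and 67.2 ± 8.02 CPM in PNX (SD, n = 2 samples each). Without block PNX was 0.69 above sham on the log2 scale (standard error 0.15), and edgeR's adjusted p was 0.179. Cpe rose when the replicate block was included, by 0.68 as a log2 fold change (standard error 0.11), at an edgeR adjusted p of 0.00536. The ratio of PNX to sham was 1.41 in the earlier deposit (exact 95% interval 1.37 to 1.46) and 1.84 in the later (1.72 to 1.97), counting error only.

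Cpe is also expressed outside the endothelium. Of the marker lists of such cells, the neuroendocrine list was mixed in sign, while the fibroblast and mesothelial lists lay mostly higher in PNX. The median log2 fold change without block was 2.14 over the fibroblast list (6 of 8 positive) and 1.06 over the mesothelial list (6 of 6 positive). In the neuroendocrine list 3 of 6 genes tested had a positive and 3 a negative log2 fold change, and 2 of 6 passed both thresholds with the replicate block, both higher. They were Calca, which encodes calcitonin gene-related peptide (0.817 to 2.86 CPM in sham and 10.8 to 18.1 CPM in PNX, edgeR adjusted p = 0.00450), and the granule protein gene Chga (0 to 0.0283 CPM in sham and 1.02 to 2.20 CPM in PNX, edgeR adjusted p = 3.22e-04). The summed level of its 9 genes was 4.47 to 7.51 CPM in sham and 17.2 to 23.1 CPM in PNX, with Insm1, a transcription factor gene that marks these cells, at 0 to 0.0402 CPM. The 8 fibroblast genes summed to 1174 to 1326 CPM in sham and 3519 to 4997 CPM in PNX, and 5 of 8 (Col1a1, Col1a2, Col3a1, Dcn and Lum) passed both thresholds with the replicate block, all higher. Pdgfra of the same list fell at the looser rule (log2 fold change -0.49, edgeR adjusted p = 0.0326 with the block). The 6 mesothelial genes summed to 160 to 379.6 CPM in sham and 326 to 865 CPM in PNX, and 4 of 6, Msln, Upk3b, Wt1 and Lrrn4, passed likewise, all higher. No gene of these lists was at 0 in every library. The part of these cells in the level of Cpe was not tested.

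**Figure D3:**
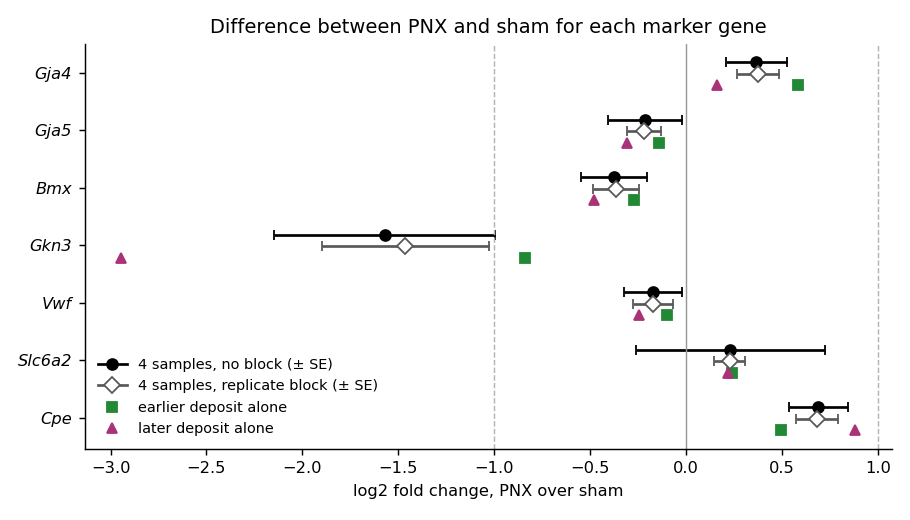
Log2 fold change of PNX over sham for each gene, with its standard error in the fits without and with the replicate block, and within each deposit alone. Each gene lies on the same side of 0 in both deposits, and only Gkn3 lies beyond -1, marked by a dashed line, in both fits.

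All 7 genes had the same sign in both deposits, as 75.3% of all genes tested did. Gkn3 ranged most between deposits, from -0.84 in the earlier to -2.94 in the later one on the log2 scale, and Slc6a2 least.

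To set the 7 genes beside the programme they belong to, 17 other arterial genes and 14 other venous genes were examined, and all 31 were tested. Without block 0 of 17 and 0 of 14 passed the thresholds in edgeR. In that fit 3 of the 17 arterial genes (2 higher and 1 lower) had an unadjusted p under 0.05. So did 6 of the 14 venous genes (5 higher and 1 lower), against 12.5% of all genes (7.54% higher and 4.96% lower). With the replicate block, at an adjusted p under 0.05 and any fold change, 8 of the 17 arterial genes fell, 2 rose and 7 did not pass, while among all genes 10.1% fell and 11.5% rose. Of the 14 venous genes 6 rose, 2 fell and 6 did not pass. The median log2 fold change without block was -0.29 over the arterial list and 0.36 over the venous list. The arterial counts were 7 or 8 lower and 2 higher, and the venous counts 4 to 8 higher and 2 lower, under every other scaling, tool and left-out library tried with the block and 4 samples.

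The arterial genes that fell with the block included the Notch ligand gene Dll4 and the Notch target gene Hey1. The Notch ligand genes Jag1 and Jag2 of the same list did not pass the looser rule. Their log2 fold changes were -0.06 and 0.21 with the block (edgeR adjusted p of 0.680 and 0.144). Hey1, a transcription factor of arterial fate, was at 85.5, 85.0 and 32.4 CPM in PNX, against 121, 120.5 and 66.7 CPM in sham, lower inside each deposit but with overlap across them (log2 fold change -0.76, edgeR adjusted p = 0.00702 with the replicate block and 0.708 without). Efnb2, the arterial ephrin ligand, was at 211 to 301 CPM in sham and 159 to 190.2 CPM in PNX, at -0.53 with the block (edgeR adjusted p = 0.00917). Acvrl1, a BMP receptor, was at 4731 to 5365 CPM in sham and 3353 to 3880 CPM in PNX, at -0.48 (edgeR adjusted p = 0.0476). Its CPM lay above that of the general endothelial gene Pecam1 (2020.2 to 2528 CPM in sham and 2128 to 2464 CPM in PNX). CPM is summed over transcripts and not scaled by their length, so the order of these genes per transcript length was not tested. How far the genes of this list report on arteries alone was not tested. Nrp1, the co-receptor for VEGF and semaphorins, was at 504 to 647 CPM in sham and 392 to 476 CPM in PNX. The transcription factor gene Mecom, the semaphorin gene Sema3g and the cytokine-like gene Cytl1 also fell, and Cytl1 had the largest log2 fold change in size, -1.18 (edgeR adjusted p = 0.0106). The netrin receptor gene Unc5b and the secreted protease gene Htra1 rose, by 0.66 and 0.89 on the log2 scale (edgeR adjusted p of 0.00654 and 0.00111). Sox17 was at 350.4 to 442 CPM in sham and 381 to 501 CPM in PNX, and the matrix gene Ltbp4 at 965 to 1267 CPM in sham and 859.6 to 972 CPM in PNX, both with overlap.

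On the venous side, 2 genes passed both thresholds with the replicate block. Ackr1, the atypical chemokine receptor of venules, had 1.80, 2.09 and 2.24 CPM in PNX, against 0.578, 0.792 and 1.00 CPM in sham (log2 fold change 1.37, edgeR adjusted p = 0.00914 with and 0.236 without block). Csrp2, a LIM domain protein gene, had 43.3, 41.8 and 55.2 CPM in PNX, against 27.6, 27.5 and 20.6 CPM in sham (log2 fold change 1.00, edgeR adjusted p = 0.00713 with and 0.175 without block). Neither passed with the block under DESeq2's size factors, upper-quartile scaling or library size alone, nor without sham replicate 1, sham replicate 2 or PNX replicate 1, where 0 of 14 did. Nrp2, the semaphorin and VEGF-C co-receptor, was at 357 to 402 CPM in sham and 529 to 618 CPM in PNX, at 0.61 with the block (edgeR adjusted p = 0.0120). Lrg1, Ptgs1 and Bst1 also rose at the looser rule, while Amigo2 (120.1 to 194 CPM in sham and 92.4 to 93.6 CPM in PNX) and Car8 (32.6 to 44.1 CPM in sham and 17.5 to 29.4 CPM in PNX) fell. The venous regulator Nr2f2 was at 47.6 to 75.7 CPM in sham and 41.9 to 78.7 CPM in PNX, and the venous ephrin receptor gene Ephb4 at 328 to 464 CPM in sham and 356 to 406 CPM in PNX, both with overlap. The leukocyte adhesion genes Selp, Sele and Vcam1 did not pass, with log2 fold changes of 1.12, 0.83 and 0.42 within the earlier deposit but -0.02, -0.04 and 0.03 within the later one. In sham the later deposit was lower than the earlier one for 10 of 14 venous, 14 of 17 arterial, 10 of 10 aerocyte, 8 of 8 general capillary and 8 of 8 general endothelial genes, against 50.9% of all genes tested. In PNX it was lower for 10 of 14, 13 of 17, 9 of 10, 7 of 8 and 6 of 8, against 48.3%, so a lower level in the later deposit was shared by the endothelial lists.

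**Figure D4:**
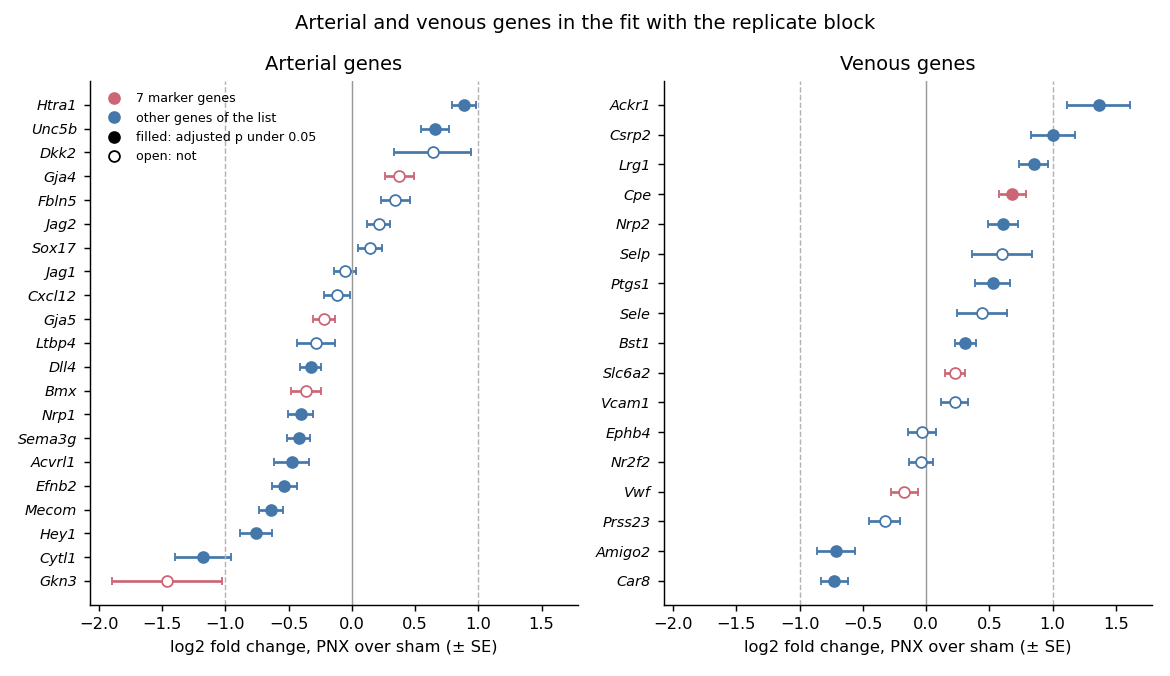
Log2 fold change of PNX over sham with its standard error in the fit with the replicate block, for the 7 marker genes and the other arterial (left) and venous or large vessel (right) genes. Filled points have an adjusted p under 0.05, as 8 other arterial genes below 0 and 6 other venous genes above 0 do, and of the 7 marker genes only Cpe.

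Capillary ECs, the neighbours of both vessel types, were compared for context. With the replicate block at an adjusted p under 0.05, 5 of 10 aerocyte genes and 5 of 8 general capillary genes fell and 0 rose, at median log2 fold changes of -0.33 and -0.47 without block. Of the 8 general endothelial genes 0 fell and 0 rose, with a median of -0.12. Lymphatic ECs, which also carry CD31, were represented by 7 genes that summed to 511 to 1135 CPM in sham and 599 to 810.1 CPM in PNX. Of 6 tested, Prox1, the regulator of lymphatic fate, and Pdpn rose at the looser rule (log2 fold changes 0.74 and 0.56, edgeR adjusted p of 0.0305 and 0.0122 with the block), and Lyve1 fell (-0.71, edgeR adjusted p = 0.0453). The part of lymphatic ECs in the levels of the venous genes was not tested. Of the 7 smooth muscle genes, which arteries carry in their wall, 0 passed in either direction, and their summed level was 237 to 266 CPM in sham and 185 to 304 CPM in PNX. Cardiomyocytes, which sheathe the pulmonary veins of mice, were represented by 9 genes that summed to 10.4 to 14.0 CPM in sham and 11.9 to 14.5 CPM in PNX. Of 8 tested, 1 rose and 1 fell at the looser rule with the block. They were Tnnt2 (log2 fold change 0.88, edgeR adjusted p = 0.0103) and Ryr2 (-1.01, edgeR adjusted p = 0.0196).

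The genes whose levels ran most alike to each of the 7 were sought over the 4 samples among 14156 genes with a mean of at least 1 CPM, as the smallest root-mean-square difference of centred log2 CPM. For Gja4 these were Chpf (0.0217) and Fst (0.0386), and for Gja5 Ccdc71 (0.00737) and Hace1 (0.00979). Bmx was nearest to Ggact (0.0158) and Sort1 (0.0191), and Vwf to Snapin (0.00498) and Mir3064 (0.00795). Slc6a2 was nearest to Map2 (0.0314) and Lpar4 (0.0556), both of which share its difference between deposits. Cpe was nearest to Unc5b (0.0148), 1 of the 2 arterial genes that rose, and to Cdc25a (0.0196). Gkn3 had no close match, with Six4 (0.155) and D430036J16Rik (0.218) nearest. With 4 samples that share deposits, many genes run alike, and these matches are a description only.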

How the data were processed

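The authors aligned reads of stranded mRNA libraries to mm10 (GRCm38) and counted them per RefSeq transcript on the Basepair platform; the submitters' processing notes name STAR, and no source used here states the counting rule or the annotation release. The authors deposited whole-number counts, FPKM and TPM for 33068 transcripts of 24063 symbols. Counts were summed per symbol, and 6 of the 7 genes have 1 transcript. FPKM and TPM, as deposited, served for levels per transcript length and were not tested.

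Members and lists were chosen with earlier results of these data known. Samples were grouped by the treatment label, and replicates 1 and 2 of a group were summed because their counts were nearly the same, by chi-square over 1-transcript symbols with 20 or more counts in a pair. PNX was compared with sham by edgeR 4.0.16 in R 4.3.3 (TMM, filterByExpr, then glmQLFit and glmQLFTest), with Benjamini-Hochberg adjustment over every gene tested. The standard error is the log2 fold change divided by the square root of F. CPM values use the TMM scaling of the 4 samples, applied to each library. The labels pair the groups by deposit, and the later-to-earlier difference in sham tracked that in PNX over 13005 genes (Pearson's r = 0.755 and Spearman's rho = 0.761 across genes, which are no independent replicates). The fit with the deposit as replicate block has 1 residual degree of freedom.

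Tested on simulated counts for 16598 genes with 200 changed by a log2 fold change of 2, this PNX and sham comparison of 4 samples called 200 changed and 1 unchanged gene with the block, and 0 without it. The simulated deposit difference was the same in sham and PNX, and the dispersion came from the fit with the block. The simulation therefore favoured the block and cannot show which fit suits the real data. Changed genes were drawn from those above a count floor, and smaller changes were not simulated. Exact 95% intervals are Clopper-Pearson, taken on the share that PNX had of a transcript's counts. Positions are from GENCODE vM21 and promoters from RefSeq on GRCm38.p6. For 4 of 7 genes the promoter table had an entry. Nothing in the labels says that replicates 1 and 2 are separate mice, so p-values measure the spread between these samples. From the lists, genes called in either fit, and the 2 with the highest CPM and the 2 largest log2 fold changes among other arterial and venous genes, were named by rule. All other list genes named (such as Sox17, Nr2f2, Selp, Sele, Vcam1, Stmn2, Prph, Th, Dbh, Insm1, Pdgfra, Prox1, Pdpn and those that passed the looser rule) were chosen after their values were seen. DESeq2 1.42.0, limma 3.58.1 (voom), other scalings, filters, thresholds, the transcript with the highest total and left-out libraries were tried as alternatives.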

Additional observations from a re-analysis of the deposited data

Results flagged for a closer look

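Ephb4, the venous ephrin receptor gene, differed in opposite directions in the deposits, at -0.18 (log2 of PNX over sham) in the earlier and 0.12 in the later one, each beyond counting error; the difference between the deposits was not tested.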

How the results depend on the processing

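Without block edgeR called 0 genes (2076 at an unadjusted p under 0.05), also under 3 other scalings (2103 to 2112), without a filter (2208), with 10 counts in every library (1889) and at an adjusted p under 0.05. Limma-voom called 0 (2174 at an unadjusted p under 0.05) and DESeq2 572. With the replicate block edgeR called 849 genes, 624 with DESeq2's size factors, 646 with upper-quartile scaling, 629 with library size alone, 727 with the transcript with the highest total (added after seeing the data), 1186 at an adjusted p under 0.05 and 3584 at any fold change; DESeq2 called 810 and limma-voom 921. With 6 separate libraries the count was 409 without and 1104 with the block. Leaving out 1 library gave 0 to 863 genes, 0 to 2 of them without block (2 without PNX replicate 3) and 485 to 863 with it, lowest without PNX replicate 1.

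Of the 7 genes 0 were called throughout, except 1 (Cpe) with the block at an adjusted p under 0.05 and any fold change. Over 13 fits with the block and 4 samples, the edgeR, DESeq2 or limma adjusted p was at most 0.0176 for Cpe, 0.0466 to 0.103 for Gja4 and 0.0429 to 0.0873 for Gkn3. Without block DESeq2 gave 0.0370 for Cpe. The block changed no other call among the 7. The direction changed only for Slc6a2, at -0.18 without sham replicate 3 and -0.39 without both earlier PNX libraries, fits in which the deposits are unequally divided between groups. Leaving out a library moved it between -0.18 and 0.67. Gkn3 was not tested at 10 counts in every library. Ranks by FPKM and TPM were the same. With 2 samples per group, edgeR without the block passed 0 genes at any size of change, and its smallest adjusted p was 0.0720. Differences under the spread between deposits were among those not detectable in that fit.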
